A study of Mus musculus with 4 samples.

Results

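The genes described here are 5 members of the Reg family, Reg1, Reg3a, Reg3b, Reg3g and Reg4, and Dmbt1. They were picked by symbol, 6 of the 31053 genes in the deposited gene lists. Their levels were followed over the 12 cell types named in the authors' per-cell tables and between the 2 genotypes. Single-cell libraries were made from sorted, living TOM+ cells of mouse duodenal crypts, where TOM is a fluorescent protein made only after Cre has acted. WT stands for Atoh1CreER-T2;R26RTom mice and APC-KO for mice that also carried Apcfl/fl, with 2 libraries each. Both genotypes carried the reporter and a Cre driven from Atoh1, a transcription factor gene of secretory cells, and both received tamoxifen at 1 mg/mL in 2 doses 24 h apart, with harvest 12 h after the last dose. The labels write the driver of the APC-KO mice as Atoh1Cre, while the series description gives the inducible form for both. They name no animal, age or sex for a library, so p-values measure the spread between libraries only.

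Reg genes encode small secreted C-type lectins. Reg3g and Reg3b are antibacterial lectins that enterocytes and Paneth cells release into the lumen, and they are known to be induced through Toll-like receptor signalling and through IL-22 and STAT3. Dmbt1 is a large secreted scavenger receptor glycoprotein that binds bacteria and mucins. Reg4 is known as a marker of deep crypt secretory cells of the colon and of endocrine cells.

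In GENCODE M21 (GRCm38), Reg3b (6, 78370657 to 78373466, plus strand), Reg3a (6, 78380709 to 78383827, plus strand), Reg1 (6, 78422711 to 78428667, plus strand) and Reg3g (6, 78466269 to 78468872, minus strand) lie in 1 cluster on chromosome 6. The related genes Reg3d and Reg2 lie between them. Reg4 lies elsewhere (3, 98222156 to 98236748, plus strand), as does Dmbt1 (7, 131032053 to 131121630, plus strand), whose longest coding transcript has 48 exons against 6 or 7 in the Reg genes. The longest coding transcripts of Reg3b and Reg3g were identical at 68.6% of aligned bases, with a longest shared run of 35 bases, so a read within such a run would not tell them apart. The RefSeq promoter table (GRCm38.p6, 250 bases before to 50 after the start) held 5 of the 6 genes. The promoters of Reg3b and Reg3g are shown because the levels of these genes varied together over the sums described further on. They were identical at 69.0% of aligned bases with a longest shared run of 29, while the other pairs of promoters among Reg1, Reg2, Reg3a, Reg3b, Reg3d, Reg3g and Reg4 reached at most 58.5%. Capitals mark TTCNNNGAA, the spacing of a STAT site, CTTTGAT, the core of a TCF site, and TATAAA. These motifs were chosen after the sequences had been seen.
Reg3b chr6:78370635-78370934, plus strand: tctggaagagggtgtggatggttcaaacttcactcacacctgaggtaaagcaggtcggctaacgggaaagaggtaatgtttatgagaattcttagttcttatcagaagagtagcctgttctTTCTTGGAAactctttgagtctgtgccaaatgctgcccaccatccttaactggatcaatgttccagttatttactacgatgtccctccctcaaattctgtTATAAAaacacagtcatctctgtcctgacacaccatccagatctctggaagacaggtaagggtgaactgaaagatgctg
Reg3g chr6:78468825-78469124, minus strand: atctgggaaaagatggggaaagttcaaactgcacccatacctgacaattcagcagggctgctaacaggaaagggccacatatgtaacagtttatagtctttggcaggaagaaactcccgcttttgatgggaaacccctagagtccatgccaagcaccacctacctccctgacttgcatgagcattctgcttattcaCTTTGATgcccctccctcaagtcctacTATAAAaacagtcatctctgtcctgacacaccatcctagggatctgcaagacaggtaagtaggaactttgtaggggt
TTCNNNGAA, searched on both strands, was present among the members in Reg3b, from 129 bases before the start, and in 8.30% of 32851 promoters of this length. CTTTGAT, on both strands, was present among the members in Reg3g, from 54 bases before the start, and Reg3a, and in 3.73% of promoters. TATAAA, on the gene's strand, was present among them in Reg1, Reg3b and Reg3g and in 8.32% of promoters. None of the 3 motifs was found in the window of Reg4. A match of letters is a description and shows no binding.

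The kept cells numbered 4814 and 3821 in WT replicates 1 and 2 and 356 and 6243 in APC-KO replicates 1 and 2, with 3009636 UMIs (unique molecules) in APC-KO replicate 1 and between 21003179 and 27285079 in the others. APC-KO replicate 1 had at least 20 cells of EC, GOBLET and GOBLET-PRE only, so levels in the other 9 types rest on 3 libraries, and its values there are given with their cell numbers. Apc had 87.2, 77.9, 88.1 and 88.1 UMIs per 1e6 UMIs (CPM) over all kept cells in this order. The deleted exons are not given, so this level checks neither the deletion nor the labels. Among the 15234 kept cells, 20 barcodes occurred in more than 1 library. Of 12 pancreatic acinar markers 3 or 4 were detected, at 18.2 and 21.2 CPM in sum in WT and 36.2 and 12.9 in APC-KO. Most of these UMIs were of Cela1 (401 and 380 in WT, 50 and 294 in APC-KO) and Ctrb1 (47 and 64 in WT, 58 and 26 in APC-KO). The 58 were in APC-KO replicate 1, the library with the fewest UMIs. Prss2, Cpa1, Pnlip and Amy2a5 were among those at 0. This bears on Reg1 and Reg3a, which are also genes of the exocrine pancreas. Summed immune markers had 1.33 to 7.81 CPM and stromal markers 0.880 to 3.99.

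Levels over the cell types are a description without a test, because the authors named the cells and the names may rest on the same counts. CPM here is the UMIs of a gene scaled to the UMIs of the summed cells of a type. The assay reads the 3' end, so CPM does not scale with transcript length.

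Reg1, the founding Reg gene, and Reg3a, a Reg3 lectin, were high in 1 type, ENTERO-PRO. Reg1 had 1280 CPM in WT replicate 1, 2708 in WT replicate 2, 463 in APC-KO replicate 2 and 1111 in the 11 ENTERO-PRO cells of APC-KO replicate 1. Its mean there was 45.8-fold that in ISC, the next type (32.4 CPM ± 13.8, SD, n = 3), and the ranges over libraries did not overlap. ENTERO-PRO cells held 56.4% to 87.1% of all Reg1 UMIs of a library. All other types lay below 50 CPM in libraries with at least 20 cells, and neighbours in the order from ISC downwards overlapped. Reg3a had 77.7, 71.7 and 41.0 CPM in ENTERO-PRO in the same libraries and 197 in the 11 cells, and 0 to 9.79 CPM in the other types with at least 20 cells. A minority of cells carried these genes. Cells with at least 2000 UMIs were thinned to 2000, and cells below that were left out. Of thinned ENTERO-PRO cells, 31.7% on average over 3 libraries had a Reg1 UMI and 12.1% had a Reg3a UMI. The top 10% of ENTERO-PRO cells by Reg1 held 73.8% to 86.2% of the Reg1 UMIs in the same 3 libraries. Low-UMI barcodes, described with Reg3b, had 131 to 392 CPM of Reg1, and 2 to 9 of the 12 types of a library lay at or below 5% of that level.

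Reg3b, the most abundant member in ENTERO-PRO, was detected in all 12 types. In ENTERO-PRO it had 7607 and 3262 CPM in WT replicates 1 and 2, 2512 in APC-KO replicate 2 and 6706 in the 11 cells of APC-KO replicate 1. GOBLET-PRE followed, with 2037 and 306 CPM in WT and 658 and 699 in APC-KO, and GOBLET, with 1373 and 241 in WT and 475 and 694 in APC-KO. The endocrine types EC, EEC-PRE and NON-EC and TUFT were lowest, with means from 83.8 to 150 CPM. Only ENTERO-PRO was clear of its neighbour in the order. From GOBLET-PRE down, every type overlapped the next.

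The mean of Reg3g was 1568 CPM ± 997 (SD, n = 3) in ENTERO-PRO and 1254 ± 632 (SD, n = 3) in PANETH, and these ranges overlapped. In PANETH it had 1548 and 1686 CPM in WT, 529 in APC-KO replicate 2 and 1243 in the 16 PANETH cells of APC-KO replicate 1. In ENTERO-PRO it had 2718 and 1021 CPM in WT, 964 in APC-KO replicate 2 and 2530 in the 11 cells of APC-KO replicate 1. WT replicate 1 was above WT replicate 2 in ENTERO-PRO and not in PANETH.

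The WT libraries differed from each other in Reg3b and Reg3g in most types. Reg3b was higher in WT replicate 1 than in WT replicate 2 in 12 of 12 types, by a median of 6.05-fold (1.17 to 10.9). Reg3g was higher there in 11 of 12 types, by a median of 4.88-fold, and PANETH was the exception at 0.918. Over all kept cells Reg3b had 1279 and 307 CPM in WT and 749 and 638 in APC-KO. Both APC-KO libraries thus lay between the WT libraries. Barcodes with 1 to 50 UMIs, which hold mostly free RNA, had 1717 and 774 CPM of Reg3b in WT and 2309 and 1083 in APC-KO. WT replicate 2 was the lowest of the 4 in these barcodes too. At or below 5% of their library's level lay 0 and 4 of the 12 types in WT and 4 and 0 in APC-KO for Reg3b. For Reg3g they were 0 and 4 in WT and 3 and 0 in APC-KO. In WT replicate 2 those of Reg3b were EC, EEC-PRE, NON-EC and TUFT, at 14.4 to 26.2 CPM against 38.7. The part of free RNA in the levels of single types was not tested apart from subtracting it at 5%.

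**Figure D1:**
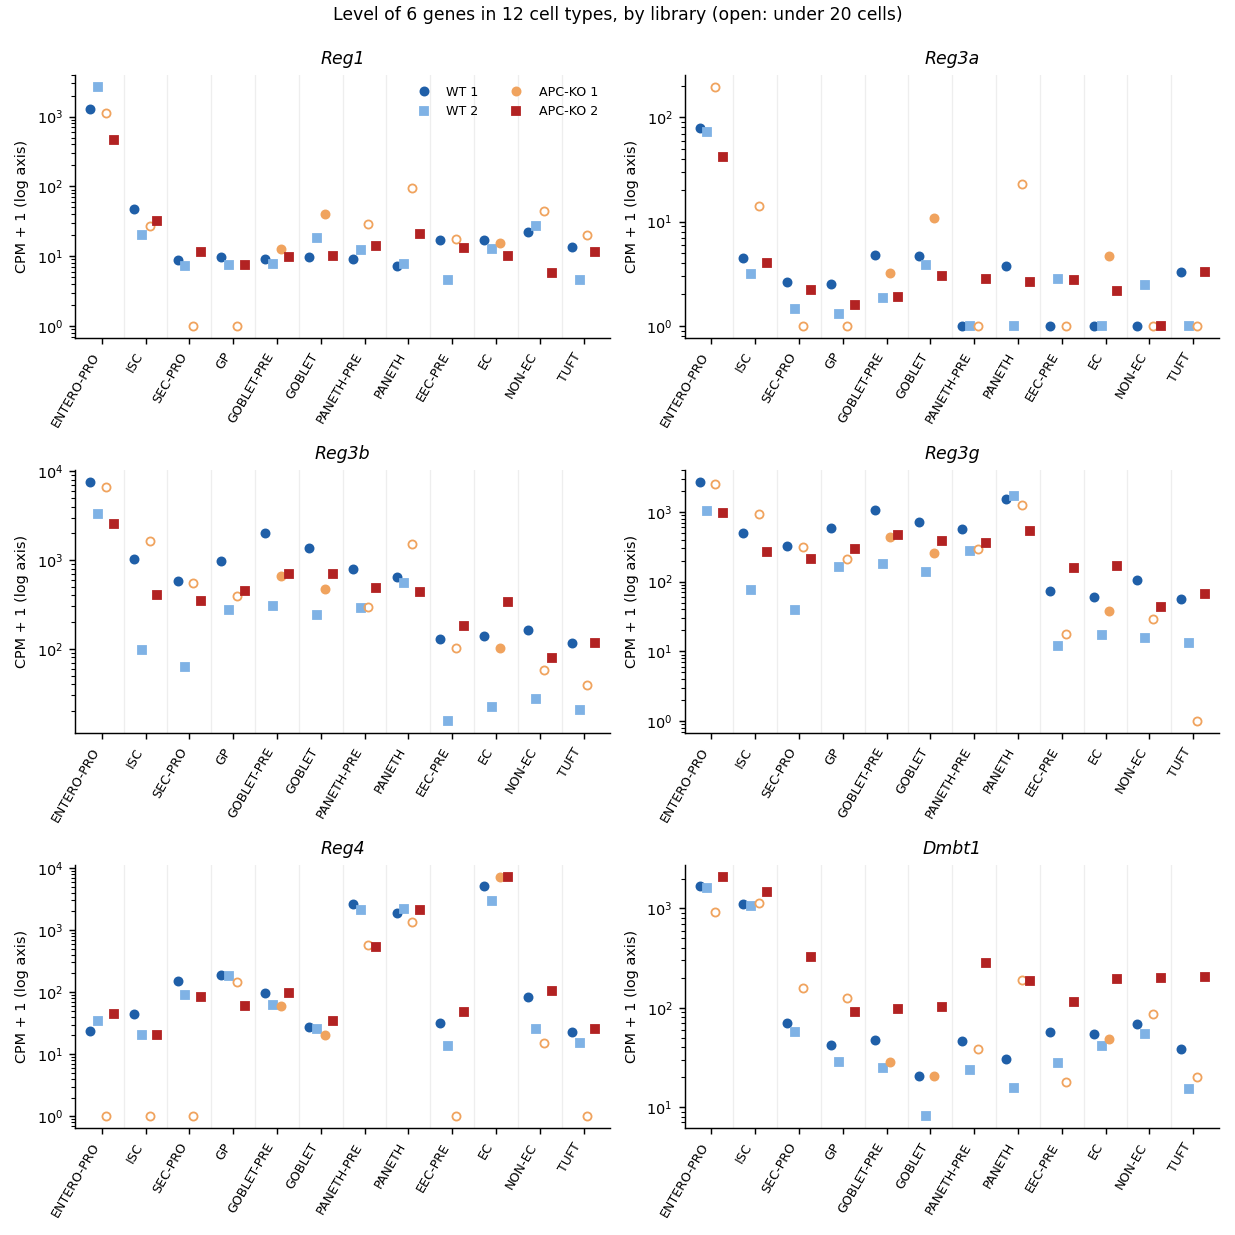
Level of each gene as CPM + 1 on a log axis in 12 cell types, 1 point per library, open where a library had under 20 cells of the type. Reg1 and Reg3a are high in ENTERO-PRO, Reg4 in EC, PANETH and PANETH-PRE, and Dmbt1 in ENTERO-PRO and ISC, while Reg3b and Reg3g are spread over more types.

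Reg3b and Reg3g varied together over the sums of types. Over the 39 sums of a type in a library with at least 20 cells, Pearson's r of log2(CPM + 1) was 0.95, while r between Reg3b and the other members ranged from -0.0017 for Reg4 to 0.62 for Reg3a. The points share libraries, so this is a description. Across the thinned cells of a type in a library, r between both genes ran from -0.12 to 0.84 over these 39. It was 0.77 to 0.84 in ENTERO-PRO, 0.70 to 0.83 in GOBLET-PRE and 0.38 to 0.57 in PANETH, over 3, 4 and 3 libraries. Other types were lower in single libraries. In WT replicate 2 it was -0.032 in EC, -0.036 in EEC-PRE and -0.024 in TUFT, and in GOBLET of APC-KO replicate 1 it was -0.12. Of ENTERO-PRO cells with Reg3g, 77.5% to 92.0% also had Reg3b, against 46.4% to 51.0% of such PANETH cells. Among all thinned cells Reg3b was itself more often seen in ENTERO-PRO, in 46.9% to 68.7%, than in PANETH, in 31.4% to 39.0%.

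PANETH stood apart in the ratio of these genes. Reg3g made up 70.5% of the UMIs of both in WT replicate 1 (exact binomial 95% interval 68.9 to 72.1) and 75.3% in WT replicate 2 (74.0 to 76.5). In APC-KO it made up 45.0% (40.6 to 49.5, 500 UMIs in 16 cells) and 55.2% (52.8 to 57.5). In the 32 sums of other types with at least 100 UMIs of both, the share ran from 23.8% to 49.2%. Both WT PANETH shares and that of APC-KO replicate 2 were above this range, and that of APC-KO replicate 1 was inside it. In PANETH-PRE the shares were 41.8% and 49.2% in WT and 49.2% and 42.6% in APC-KO, which overlapped. The difference between the genotypes in PANETH was -22.8 percentage points (exact permutation test, two-sided, p = 0.333, n = 2 per group, the smallest p that this design allows). The intervals cover counting error only. Low-UMI barcodes had shares of 30.0%, 35.3%, 23.7% and 30.2% in the order of the libraries, below every PANETH share. In APC-KO the PANETH cells also carried more UMIs of other types' markers. Summed goblet markers (7 of 7) had 7365 and 6167 CPM in WT and 14510 and 30951 in APC-KO, and summed enterocyte markers (10) 234 and 230 in WT and 1497 and 527 in APC-KO. Their part in the lower share was not tested.

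**Figure D2:**
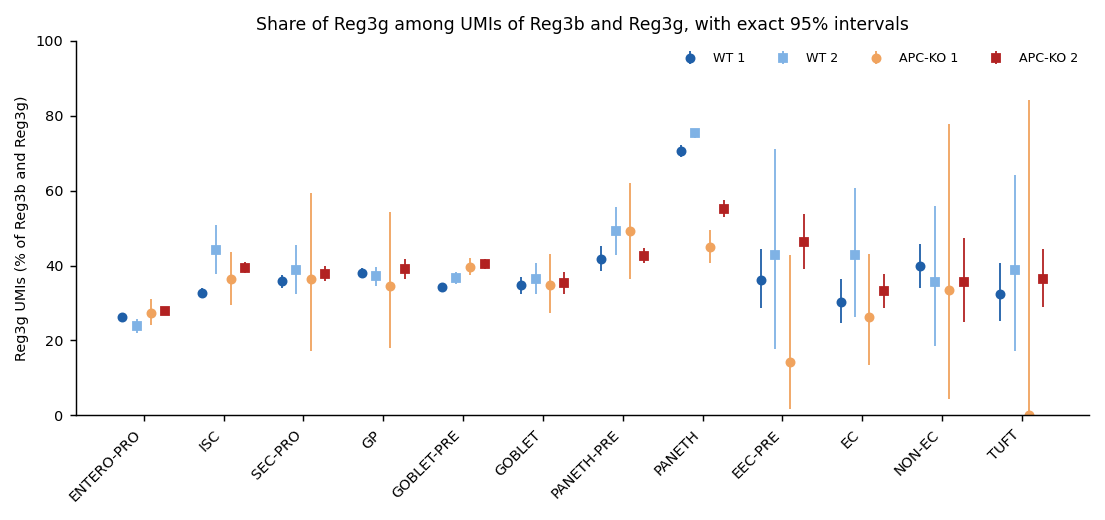
Share of Reg3g in percent of the UMIs of Reg3b and Reg3g in 12 cell types, 1 point per library with its exact 95% interval. The WT points of PANETH, at 70.5% and 75.3%, lie above those of APC-KO, at 45.0% and 55.2%, and the 32 sums of other types with at least 100 UMIs run from 23.8% to 49.2%.

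Reg4 was a gene of EC and Paneth cells. In EC it had 5183 and 2900 CPM in WT and 7158 and 7088 in APC-KO. In PANETH it had 1910 and 2161 CPM in WT, 2123 in APC-KO replicate 2 and 1326 in the 16 cells of APC-KO replicate 1. In PANETH-PRE it had 2638 and 2082 CPM in WT, 524 in APC-KO replicate 2 and 578 in the 11 cells of APC-KO replicate 1. EC was clear of PANETH in the order, PANETH and PANETH-PRE overlapped, and both were clear of GP, the next type at 142 CPM. TUFT was lowest at 20.03 CPM. EC, PANETH and PANETH-PRE together gave most Reg4 UMIs, with EC alone holding 28.9% to 82.4% of a library's.

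The Reg4 UMIs came from a minority of cells in EC and, outside APC-KO replicate 1, from most cells in PANETH. In EC the median cell had 0 Reg4 UMIs in each library. Cells with 10 or more made up 17.6% and 13.0% of EC in WT and 22.2% and 23.5% in APC-KO, and held 97.4% to 99.9% of the Reg4 UMIs of EC. In PANETH the median was 21 and 17 UMIs in WT and 12 in APC-KO replicate 2, at median depths of 12644, 10372 and 5954 UMIs per cell. At 2000 UMIs per cell, 92.5%, 92.5% and 89.1% of PANETH cells in these libraries had a Reg4 UMI, against 18.6% to 29.7% of EC cells over 4 libraries. Cells with under 2000 UMIs were left out of these shares. They were 0 in PANETH, and 34 and 12 in EC of WT and 0 and 62 in EC of APC-KO. In TUFT, the type with the lowest level, 2.82% to 6.47% had one over 3 libraries. In the PANETH cells of APC-KO replicate 1 only 6 of 16 had a Reg4 UMI before thinning.

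Within EC, the cells with 10 or more Reg4 UMIs differed from those with none in endocrine genes. Chga, which encodes chromogranin A of dense core granules, was higher by 5.30- and 4.58-fold in WT and by 6.75- and 5.55-fold in APC-KO in the sums of such cells. Tac1, the gene of substance P, was lower, at ratios of 0.449 and 0.503 in WT and 0.678 and 0.431 in APC-KO. Tph1, which makes serotonin's precursor, had ratios of 2.24 and 2.46 in WT and 1.13 and 1.21 in APC-KO. Sct, the secretin gene, had ratios of 1.44 and 1.49 in WT and 0.214 and 0.505 in APC-KO. Chga, Tph1, Chgb (ratios of 1.12 or more), Ghrl (at most 86.3 CPM) and the member Reg3b (1.59 to 1.93) were higher in 4 of 4 libraries. Some of these ratios rest on few UMIs. In the cells with 10 or more Reg4 UMIs, Ghrl had 2 UMIs in WT replicate 2 and in APC-KO replicate 2. Reg3b had 3 in WT replicate 2. Tac1 was lower in 4 of 4, and Sct went opposite ways in the genotypes. Neurod1 (0.729 to 1.01), Cck (0.235 to 2.53) and the members Reg3g (0 to 1.22) and Dmbt1 (0.216 to 1.48) went both ways. Gcg and Gip had 0 to 2 UMIs. The cells were grouped by their own Reg4 count, and no test was made. Those with 10 or more numbered 68, 35, 10 and 73 in the order of the libraries.

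**Figure D3:**
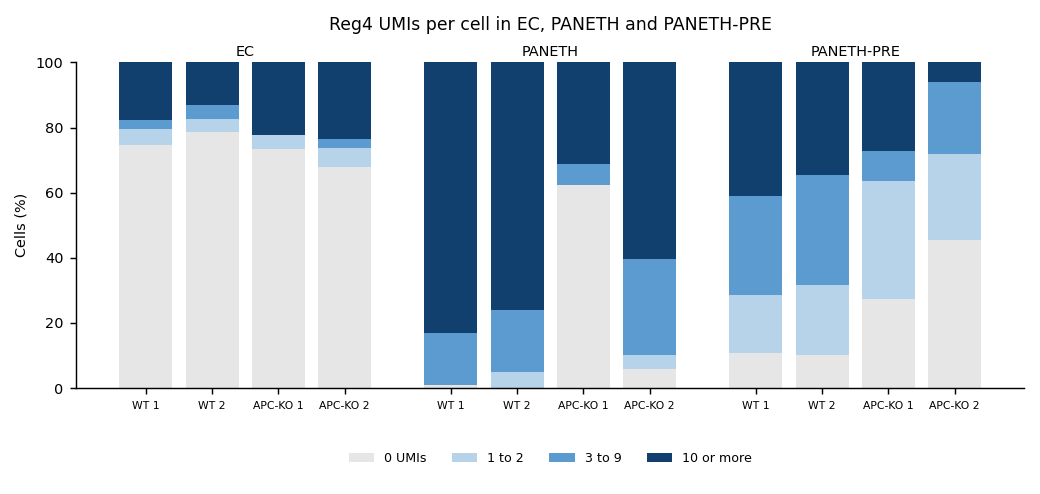
Percent of cells with 0, 1 to 2, 3 to 9 and 10 or more Reg4 UMIs in EC, PANETH and PANETH-PRE, 1 bar per library and no thinning. Cells with none are the majority in EC, and the PANETH cells of APC-KO replicate 1, 16 in all, differ from the other PANETH bars.

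Dmbt1 was high in ENTERO-PRO and ISC. ENTERO-PRO had 1690 and 1592 CPM in WT, 2080 in APC-KO replicate 2 and 928 in the 11 cells of APC-KO replicate 1. ISC had 1114 and 1061 CPM in WT, 1466 in APC-KO replicate 2 and 1135 in the 13 cells of APC-KO replicate 1. Both were clear of the next type, and SEC-PRO followed with 150 CPM ± 151 (SD, n = 3). Unlike Reg1, Dmbt1 was present in most of the cells, with a UMI in 81.8% to 84.3% of thinned ENTERO-PRO cells and 65.2% to 77.1% of ISC. The top 10% of ENTERO-PRO cells by Dmbt1 held 24.5% to 27.1% of its UMIs.

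The lower Dmbt1 levels were set beside free RNA. Low-UMI barcodes had 676 and 550 CPM of Dmbt1 in WT and 456 and 978 in APC-KO, and 5% of this is 33.8, 27.5, 22.8 and 48.9 CPM. At or below their library's 5% lay 2 and 6 of the 12 types in WT and 3 and 0 in APC-KO. PANETH had 29.8 and 14.5 CPM in WT, and PANETH-PRE 45.4 and 22.9. APC-KO had 188 and 185 CPM in PANETH (16 and 274 cells) and 37.3 and 281 in PANETH-PRE (11 and 602 cells). APC-KO replicate 2 was above both WT libraries in 12 of 12 types, and its level in low-UMI barcodes was also the highest of the 4. Both APC-KO libraries were above both WT libraries in PANETH. In low-UMI barcodes APC-KO replicate 1, with 16 PANETH cells, had the lowest level of the 4. The part of free RNA in these Dmbt1 differences was not tested.

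**Figure D4:**
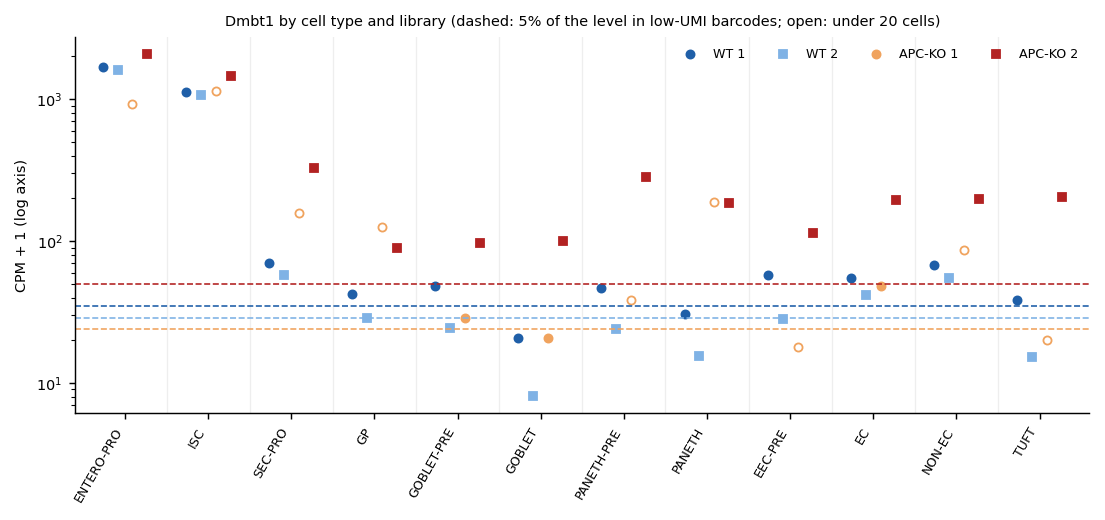
Dmbt1 as CPM + 1 on a log axis in 12 cell types, 1 point per library, open where under 20 cells. Dashed lines give 5% of the level in low-UMI barcodes of each library, from 22.8 to 48.9 CPM; WT PANETH points lie under their lines at 29.8 and 14.5 CPM and both APC-KO points lie above theirs.

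The comparison of the genotypes asked whether these genes differ between WT and APC-KO cells of the same name. Values called fitted are log2 ratios of APC-KO over WT. Over all kept cells, edgeR called 0 of the 6 genes and 0 of 13345 genes (0%) at an adjusted p under 0.05. An unadjusted p under 0.05 was reached by 495 genes, and DESeq2 (Wald test) called 23. Dmbt1 had 247 and 131 CPM in WT and 91.4 and 647 in APC-KO, for a fitted log2 ratio of 1.01 (SE 0.86). Leaving out APC-KO replicate 2 made it -0.84, and leaving out APC-KO replicate 1 made it 1.79. Reg4 had 531 and 447 CPM in WT and 789 and 469 in APC-KO. Only Reg3a did not overlap between the groups, at 4.70 and 2.38 against 8.64 and 5.31 CPM, where 34.5% of the genes did not overlap.

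In EC, edgeR called 0 of 5 members tested and 0 of 8690 genes (0%). An unadjusted p under 0.05 was reached by 729 genes, and DESeq2 (Wald test) called 13, with no adjusted p for 6907. Reg3a was too low to be tested. Of the members tested, only Reg4 did not overlap between the groups, where 38.9% of the genes did not. Reg4 had a mean of 4042 CPM ± 1614 (SD, n = 2) for the WT libraries against 7123 ± 49.6 (SD, n = 2) for APC-KO. Its fitted log2 ratio was 0.88 (SE 0.32, adjusted p 0.508, edgeR). Dmbt1 had 53.5 and 40.6 CPM in WT and 47.6 and 195 in APC-KO, fitted at 1.63 (SE 0.42, adjusted p 0.395, edgeR). Its higher level in APC-KO came from replicate 2. Without APC-KO replicate 1 it was 2.06, and Reg3b and Reg3g were 2.04 and 2.08, with 1 APC-KO library left.

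In goblet cells no member was called either. In GOBLET, edgeR called 0 of 5 members tested and 5 of 5974 genes (0.0837%). All 5 members overlapped between the groups, where 44% of the genes did not. Dmbt1 had 19.7 and 7.08 CPM in WT and 19.6 and 99.8 in APC-KO, fitted at 2.53 (SE 0.53, adjusted p 0.162, edgeR). It was 0.45 without APC-KO replicate 2, and it passed without TMM factors (2.65, adjusted p 0.0489, edgeR), against 0.167% of genes. In GOBLET-PRE, edgeR called 0 of 6 and 1 of 10272 genes (0.00974%). Reg3g there was fitted at -0.36 (SE 0.68), and at 1.52 without WT replicate 1. Reg1 was the only member of GOBLET-PRE that did not overlap, at 7.96 and 6.59 against 11.8 and 8.61 CPM, where 41.8% of the genes did not. In low-UMI barcodes 5% of the Reg1 level was 19.6 and 9.98 CPM in WT and 17.3 and 6.56 in APC-KO. Only APC-KO replicate 2 lay above its value. After subtraction of free RNA Reg1 was not tested in GOBLET-PRE.

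In the Paneth lineage, the sum of PANETH and PANETH-PRE, Dmbt1 rose in APC-KO and was the 1 member called of 5 tested, against 57 of 8599 genes (0.663%), with 0.244% higher and 0.419% lower in APC-KO. It had 34.4 and 15.96 CPM in WT and 132 and 242 in APC-KO, and the fitted log2 ratio was 2.38 (SE 0.32, adjusted p 0.0106, edgeR). Markers of other types were also higher in these sums of APC-KO. Summed enterocyte markers (10 genes) had 336 and 296 CPM in WT and 1221 and 612 in APC-KO, and goblet markers (7 genes) 15608 and 9821 against 28874 and 39268. Stem cell markers (6 genes) had 510 and 594 CPM against 444 and 993, which overlapped. Their part in the Dmbt1 difference was not tested. The CPM values of Dmbt1, Reg1, Reg3g and Reg4 separated the genotypes without overlap, as did those of 51.2% of the genes. Reg4 had 2124 and 2148 CPM in WT and 1048 and 1170 in APC-KO, fitted at -1.45 (SE 0.35, adjusted p 0.0893, edgeR). Reg3g had 1258 and 1440 CPM in WT and 888 and 429 in APC-KO, fitted at -1.45 (SE 0.47, adjusted p 0.178, edgeR). Reg3b had 686 and 506 CPM against 1065 and 463, which overlapped (-0.05, SE 0.48). Reg1 had 6.69 and 7.58 CPM against 69.4 and 15.8 (0.91, SE 0.66), and 3.03 without APC-KO replicate 2. The 69.4 CPM came from 20 UMIs in the 27 cells of APC-KO replicate 1. Both WT values lay under 5% of their low-UMI barcode level of Reg1, 19.6 and 9.98 CPM. Both APC-KO values lay above theirs, 17.3 and 6.56. After subtraction of free RNA Reg1 was not tested here. Reg3a was not tested.

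The call of Dmbt1 was lost without WT replicate 1 (2.99, adjusted p 0.152, edgeR) and without WT replicate 2 (1.87, adjusted p 0.867, edgeR), where 0 and 1 of all genes were called. In PANETH cells alone its value was 2.49 (adjusted p 0.00101, edgeR) and in PANETH-PRE alone 2.50 (adjusted p 0.000324, edgeR), against 1.41% and 1.53% of genes called. Both fits include APC-KO replicate 1 with under 20 cells, and in PANETH-PRE its 37.3 CPM of Dmbt1, from 4 UMIs, lay inside the WT range, so that value rests on APC-KO replicate 2. After subtraction of free RNA the WT sums of Dmbt1 were near 0, so that the fitted fold can no longer be read. The DESeq2 Wald test gave Dmbt1 no adjusted p (2.34, SE 0.45), as for 8002 of the 8599 genes, and so did not call it.

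In the whole lineage the DESeq2 Wald test called Reg4 (-1.46, adjusted p 0.000179, DESeq2), against 38 of 8599 genes (0.442%). As 8002 of these had no adjusted p, the share among genes that could be called was higher. After thinning to 2000 UMIs per cell Reg4 passed too (-1.76, adjusted p 0.0125, edgeR), against 1.21% of genes. Reg4 was also fitted in each Paneth type. In PANETH-PRE it fell by 2.10 on the log2 scale (SE 0.35, adjusted p 0.000539, edgeR), and in PANETH its fitted value was -0.82 (SE 0.39, adjusted p 0.400, edgeR). The difference between these values was not tested. At 2000 UMIs per cell, 82.5% and 79.6% of PANETH-PRE cells had a Reg4 UMI in WT, against 42.2% in APC-KO replicate 2 and 36.4% of the 11 cells of APC-KO replicate 1. The make-up of the lineage moved with genotype: PANETH gave 70.5% and 82.6% of its UMIs in WT and 62.8% and 40.4% in APC-KO. In PANETH-PRE, summed Paneth markers (8 genes) had 130765 and 112435 CPM in WT and 97683 and 41371 in APC-KO, and goblet markers 35355 and 27121 against 53123 and 44909. Their part in the lower Reg4 was not tested.

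The scaling mattered in the Paneth lineage. Scaled by the UMIs of the sum alone, without TMM factors, the median log2 fold change of all genes was 0.68 in place of 0.00, and 572 genes were called, of which 93.5% were higher in APC-KO against 36.8% with TMM factors. Dmbt1 was then 2.96 (adjusted p 0.00388, edgeR), Reg4 -0.94, Reg3g -1.04 and Reg3b 0.35, so that the direction of Reg3b flipped. The printed CPM values follow this second scale.

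**Figure D5:**
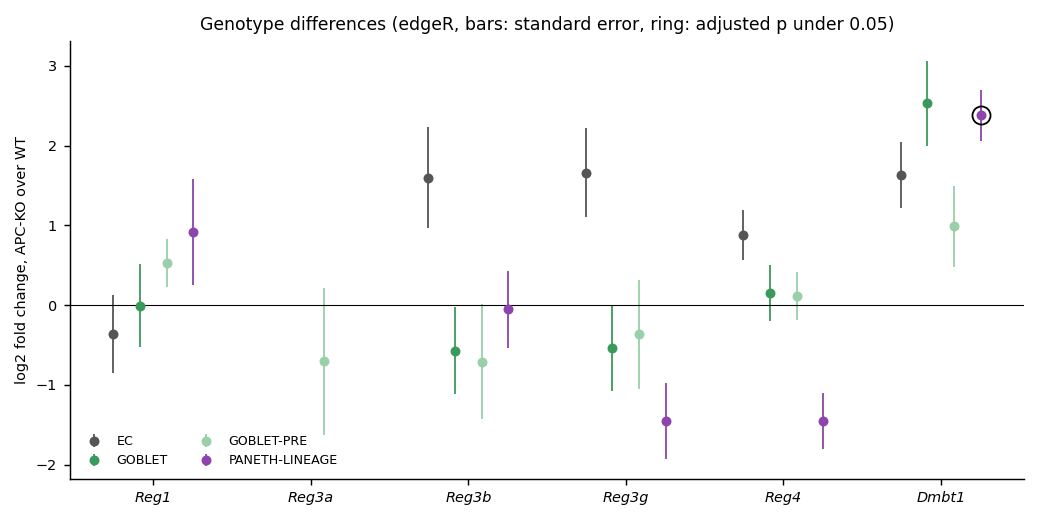
Log2 fold change of APC-KO over WT by edgeR with its standard error, for each gene tested in EC, GOBLET, GOBLET-PRE and the Paneth lineage, with n = 2 libraries per group. A ring marks an adjusted p under 0.05, which Dmbt1 in the Paneth lineage reached at 2.38.

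The genotype difference itself differed between the Paneth lineage and the goblet lineage for 3 members. In 1 fit with the library as a block, edgeR called 3 of 6 members against 232 of 10265 genes (2.26%). The Paneth to goblet ratio was called higher in APC-KO for 1 member, against 0.74% of genes, and lower for 2, against 1.52%. For Reg4 the Paneth difference minus the goblet difference was -1.62 (SE 0.26, adjusted p 1.71e-05, edgeR), with 89.6 and 54.0 CPM in goblet cells of WT and 54.4 and 86.0 in those of APC-KO. For Reg3g it was -1.87 (SE 0.40, adjusted p 0.00195, edgeR), with 1023 and 171 CPM in goblet cells of WT and 414 and 457 in those of APC-KO. For Dmbt1 it was 1.06 (SE 0.24, adjusted p 0.00479, edgeR), with 43.9 and 20.7 CPM in goblet cells of WT and 26.7 and 97.1 in those of APC-KO. Reg3b (-0.24, SE 0.36), Reg1 (0.77) and Reg3a (2.06) were not called. Reg3g did not pass without WT replicate 2 (-0.46), and Reg4 did not pass without APC-KO replicate 2 (-1.04, adjusted p 0.141, edgeR). Dmbt1 did not pass without WT replicate 1 (1.19, adjusted p 0.0697, edgeR) or after thinning (1.08, adjusted p 0.189, edgeR). Without TMM factors the median of all genes was 0.77, and 2376 of 10265 genes (23.1%) were called, 2343 higher and 33 lower. Reg4 was then -0.94 (adjusted p 0.0699, edgeR). Reg3g was called at -1.20, and Dmbt1 and Reg1 were called at 1.99 and 1.52, in the direction of most genes called. The DESeq2 Wald test called 1 of the members, Reg4 (-1.59, adjusted p 0.00853, DESeq2), against 33 of 10265 genes (0.321%). As 7164 of these had no adjusted p, the share among genes that could be called was higher. Reg3g (-1.81, SE 1.42, adjusted p 0.999, DESeq2) and Dmbt1 (1.41, SE 0.49, adjusted p 0.211, DESeq2) did not pass there.

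The other Reg genes and the pathways known to act on Reg3b and Reg3g were measured beside them. Reg2 had 0 to 3 UMIs and Reg3d 0 to 2 UMIs per library over all kept cells. Of 16 genes of IL-22 and STAT3 signalling, 14 were tested over all cells and 11 in the Paneth lineage, and none was called in any of the 6 fits. The most abundant were Jak1, a kinase of cytokine receptors, with 91.4 to 103 CPM over all cells, and Stat3, their transcription factor, with 47.9 to 80.1. Their median log2 fold change in the Paneth lineage was -0.27, against 0.00 over all genes. Of 17 other genes known to respond to IL-22, 0 of 5 were called in the Paneth lineage. In the fit of both lineages 1 of 9 was called, Ceacam1, an adhesion molecule, with a difference of 0.74 (adjusted p 0.0234, edgeR).

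Of 20 genes of Toll-like and NOD receptor signalling, 0 of 10 were called in the Paneth lineage and 1 of 12 in the fit of both lineages. This was Nfkbia, the inhibitor of NF-kappaB that NF-kappaB itself induces, with 94.7 and 222 CPM in the Paneth lineage of WT and 76.3 and 71.0 in APC-KO. Its difference between the lineages was -1.21 (SE 0.19, adjusted p 1.80e-05, edgeR). Without TMM factors Nfkbia was not called (-0.42, adjusted p 0.336, edgeR), and Ceacam1 was (1.39), where 23.1% of all genes were called.

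Of 18 other secreted antimicrobial and mucus genes, 17 were in the deposited lists. In GOBLET 1 of 11 was called, Mptx1, a pentraxin, which fell by 3.10 on the log2 scale (SE 0.39, adjusted p 0.00516, edgeR). Over all cells Mptx1 had 175 and 246 CPM in WT and 239 and 2.68 in APC-KO, so that 1 library was low. In the Paneth lineage 0 of 12 were called. In the fit of both lineages 4 of 14 were called lower and 1 higher. Lyz1, the Paneth lysozyme, had -1.90 (adjusted p 2.80e-05, edgeR), Itln1, a sugar-binding lectin, -2.35, Ang4, an antimicrobial ribonuclease, -1.38, and Mptx2 -1.14, all 4 also markers of Paneth cells here. Zg16, a mucus lectin and marker of goblet cells here, had 1.86 (adjusted p 0.00118, edgeR). Without TMM factors, where 23.1% of all genes were called, Itln1 (-1.72) and Zg16 (2.49) were still called. Lyz1 (-1.26, adjusted p 0.0575, edgeR), Ang4 (-0.74) and Mptx2 (-0.50) were not, and none of the 5 turned. The lists were chosen with results of these data known, so their counts are a description.

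By the profile over the 39 sums, the 5 genes most like each member were taken from 5930 genes with a mean of at least 20 CPM, with the members left out. Between members, Reg3b with Reg3g (r = 0.95) and Reg1 with Reg3a (0.86) were close. Those most like Reg1 were Apol10a (r = 0.89), Maoa, Fabp1, Ces2e and Mttp, and those most like Reg3a were Ces2e (0.85), Spink1, Sult1b1, Dgat1 and Fabp1. Fabp1, Mttp and Dgat1 are genes of lipid absorption. Reg3b had Sh2d4a (0.73), Gjb1, Cldn15, Acp5 and Cgref1, and Reg3g had Pglyrp1 (0.80), which encodes a peptidoglycan recognition protein, then Gjb1, Spink4, Cgref1 and Cldn15. Reg4 had Nr4a1 (0.75), Fndc3b, Pla2g2f, Afp and Lamp2. Dmbt1 had Otc (0.95), a urea cycle enzyme, Nlrp6 (0.93), Aadac, Ccl25 and Cftr. These correlations over sums that share libraries are descriptions.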

How the data were processed

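The single-cell chemistry was 3' v3.1 of 10x Genomics, per the labels' protocols. Cell Ranger 3.0.2 and STAR with mm10 are named in the submitters' processing notes, and the matrix headers give version 3.0.2. The deposited matrices hold UMI counts per gene and barcode, unfiltered. The authors' deposited per-cell tables give UMI and gene counts, a mitochondrial percent and other values, namely the library and 1 of 12 type names. How cells were kept and named is not given in the sources used here. The members and gene lists were chosen with earlier results of these data known.

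UMIs were summed per library and type (Python 3.11.15, numpy 2.4.6, scipy 1.17.1). The tests used edgeR 4.0.16 under R 4.3.3 (filterByExpr, TMM, quasi-likelihood test, Benjamini-Hochberg adjustment at 0.05 over all tested genes), for types with at least 20 cells in each library. PANETH and PANETH-PRE were summed because PANETH alone had 16 cells in APC-KO replicate 1. No doublet caller was run. Thinning left out cells with under 2000 UMIs. Shares were given with exact 95% intervals. Alternatives were DESeq2 1.42.0 (size factors or Wald test), no count filter, a replicate block, each library left out, cells thinned to 2000 UMIs, free RNA, taken from barcodes of 1 to 50 UMIs, subtracted at 5%, and defensin, mitochondrial and ribosomal genes left out. Scaling by UMIs alone and a crossed block were chosen after seeing the data. Named were the 6 members, Reg2, Reg3d, each list gene called in a fit or otherwise the 2 most abundant of a list, and the 5 genes most like each member. Endocrine, marker and targeted genes outside this rule were chosen after their values were seen.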

Additional observations from a re-analysis of the deposited data

Results flagged for a closer look

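The difference between genotypes was not the same in the Paneth and the goblet lineage for 3 members, by the interaction term of edgeR. It was lower in the Paneth lineage by 1.87 on the log2 scale for Reg3g (-1.87) and by 1.62 for Reg4 (-1.62), and higher by 1.06 for Dmbt1. Each of these calls was lost with a library left out, and the DESeq2 Wald test called Reg4 only. Reg3g had 1023 and 171 CPM in goblet cells of the WT libraries, a spread that enters its value. With 2 libraries per genotype no group was large enough for a check of single outlying samples.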

How the results depend on the processing

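Of 382 values of single members under an alternative, 308 kept their direction and side of the threshold, 38 turned, 27 passed and 9 no longer passed. For each of these the cause was not tested. No low-count filter gave 3 members called in the Paneth lineage (3.17% of all genes), 4 in EC (1.12%) and 1 each in GOBLET (0.62%) and GOBLET-PRE (1.76%). Thinning gave 1 in EC (0.138% of all genes) and 2 in the Paneth lineage (1.21%), and PANETH-PRE alone gave 2 (1.53%). Scaling by UMIs gave 1 in GOBLET (0.167%), and the DESeq2 Wald test 1 in the fit of both lineages (0.321%). In the Paneth lineage the DESeq2 Wald test called Reg4 in place of Dmbt1 (0.442%). That test gave no adjusted p to 7164 of 10265 genes in the fit of both lineages and 8002 of 8599 in the Paneth lineage.

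Leaving out each library gave 0 to 1 members called over all cells, 0 to 3 in EC, 0 to 1 in GOBLET and GOBLET-PRE each, 0 to 3 in the Paneth lineage and 2 to 4 in the fit of both lineages. Over all genes it gave 0 to 483, 0 to 405, 0 to 21, 7 to 64, 0 to 461 and 59 to 364 calls in this order. The log2 fold change that turned with a library left out ranged over all cells from -0.32 to 0.036 for Reg1, -0.78 to 1.26 for Reg3b, -0.69 to 0.55 for Reg3g, -0.045 to 0.89 for Reg4 and -0.84 to 1.79 for Dmbt1. In EC it ranged from -0.59 to 0.13 for Reg1 and -0.065 to 2.92 for Reg3g. In GOBLET it ranged from -0.69 to 1.24 for Reg1, -1.35 to 1.08 for Reg3b, -1.31 to 1.01 for Reg3g and -0.59 to 0.33 for Reg4. In GOBLET-PRE it ranged from -1.42 to 0.13 for Reg3a, -1.52 to 1.31 for Reg3b, -1.16 to 1.52 for Reg3g, -0.27 to 0.55 for Reg4 and -0.20 to 1.60 for Dmbt1. For Reg3b it ranged from -1.19 to 0.60 in the Paneth lineage and -1.41 to 0.93 in the fit of both lineages. A lone library was assumed to vary like the other group.

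Thinning turned Reg1 (0.17), Reg3b (0.092) and Reg3g (0.022) over all cells, Reg4 in GOBLET (-0.086) and Reg3b in the Paneth lineage (0.0057). Scaling by UMIs turned Reg1 in GOBLET (0.15) and Reg3b in the Paneth lineage (0.35) and in the fit of both lineages (0.43), the DESeq2 Wald test Reg1 in GOBLET (0.47), and PANETH alone Reg3b (0.24). Without thinning, 42.7% of ENTERO-PRO cells had Reg1, 24.2% Reg3a, 70.4% Reg3g and 90.5% Dmbt1.

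Replicate numbers did not pair the libraries, with correlations of -0.235 over all cells and -0.0491 to 0.00903 in the other sums. The replicate block gave 124 genes called in the Paneth lineage, 4 over all cells, 73 in GOBLET (1.22%) and 110 in GOBLET-PRE, and 1 member in GOBLET. The replicate block turned Reg3b over all cells (0.23, and 0.23 with the crossed pairing, which called 1 gene), Reg1 in GOBLET (0.072) and Reg3g in GOBLET-PRE (0.19). The fit of both lineages has the library as its block, so the replicate number was not added there.

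Counts of genes called also moved with no low-count filter (21 over all cells, 174 in EC, 280 in GOBLET-PRE, 79 in GOBLET, 477 in the Paneth lineage) and the DESeq2 Wald test (23, 13, and 38 in GOBLET-PRE, and 33 in the fit of both lineages). Thinning gave 67 in the fit of both lineages, 6 in GOBLET-PRE, 10 in EC and 2 in GOBLET. Subtracting free RNA gave 124 in the Paneth lineage, 3 in GOBLET and 0 in GOBLET-PRE, scaling by UMIs gave 572 in the Paneth lineage, 2376 in the fit of both lineages, 10 in GOBLET and 3 in GOBLET-PRE, and leaving out abundant genes 3 in GOBLET. The 9 types with under 20 cells in APC-KO replicate 1 are limited by their cell number.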
